A study of Homo sapiens with 12 samples.

Results

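Small nucleolar RNAs (snoRNAs) were followed through 12 Illumina whole-genome BeadArrays of ECC1, a human endometrial cancer cell line. A table row was taken as a snoRNA if its identifier began with SNORD or SNORA, which selected 276 of 34595 rows, 174 SNORD and 102 SNORA. The 4 groups held 3 arrays each: MTDH knockout cells with estradiol, MTDH knockout cells without it, parental cells with estradiol, and parental cells without it. Estradiol was given at 10 nM for 24 h, and all 4 groups had first been moved to medium with charcoal-stripped serum. MTDH encodes metadherin, and the labels name a single knockout line, so a difference between lines holds any difference of that line as well. Nothing in the labels says that replicates were separate cultures, so every p-value here reflects the scatter among these arrays alone, and that scatter may be technical. In bulk RNA, fewer cells with a transcript and less of it per cell cannot be told apart.

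snoRNAs are short nuclear RNAs that guide chemical modification and cleavage of other RNAs, mostly ribosomal RNA, in the nucleolus. Box C/D snoRNAs, whose human gene names start with SNORD, direct 2'-O-methylation through the methyltransferase FBL, and box H/ACA snoRNAs, named SNORA, direct pseudouridylation through DKC1. Most human snoRNAs are released from introns of host genes, many of which encode ribosomal proteins or translation factors or are non-coding snoRNA host genes (SNHG). A few, among them the U3 snoRNA (SNORD3), have promoters of their own. Mature snoRNAs carry no long poly(A) tail. The table does not give probe positions, so the signal of a mature snoRNA and of a longer precursor or host transcript cannot be told apart.

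A box H/ACA RNA carries the letters ACA shortly before its 3′ end, and 3 members are shown to make that box visible. Their 3′ parts overlap annotated miRNA hairpins, and the RefSeq hairpin sequences on GRCh38.p14 are printed 5′ to 3′, with the ACA that stands 3 bases before the annotated end of the snoRNA in capitals. The hairpin MIR664A, on the minus strand at chr1:220200538-220200619, overlaps SNORA36B, the hairpin MIR664B, on the plus strand at chrX:154768596-154768656, overlaps SNORA36A, and the hairpin MIR3651, on the minus strand at chr9:92292458-92292547, overlaps SNORA84.
SNORA36B: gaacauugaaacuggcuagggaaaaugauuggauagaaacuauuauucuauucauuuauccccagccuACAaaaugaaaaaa
SNORA36A: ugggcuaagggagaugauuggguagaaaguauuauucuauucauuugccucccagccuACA
SNORA84: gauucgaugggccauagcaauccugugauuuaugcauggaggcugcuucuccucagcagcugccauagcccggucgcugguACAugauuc
The letters ACA alone, anywhere on the printed strand, were present in 63.0% of all 1562 hairpins, so the letters by themselves do not mark a snoRNA. SNORA84 lay between 6.94 and 7.18 (log2) and above the median of every array. SNORA36A (6.48 to 6.72) and SNORA36B (6.56 to 6.74) lay below it on all 12 arrays.

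MTDH itself read 10.94, 8.49 and 8.50 (log2) on the arrays labelled knockout with estradiol, 8.57, 8.53 and 8.59 in untreated knockout cells, 10.83, 10.96 and 8.97 on those labelled parental with estradiol, and 11.43, 11.18 and 10.78 in untreated parental cells. The arrays labelled knockout estradiol 1 and parental estradiol 3 therefore went against their labels, and the profile of each over all rows was nearest to an array of the other line. Labels were kept, and counts of called rows that use the estradiol groups are given with and without these 2 arrays. Counts of rows whose groups do not overlap are given for all 12 arrays alone. Array medians lay between 6.78 and 6.86. Upper quartiles were 7.57 to 7.68 in knockout cells with estradiol, 7.66 to 7.71 in untreated knockout cells, 7.62 to 7.70 in parental cells with estradiol and 7.69 to 7.77 in untreated parental cells, the last of which overlapped the 2 ranges before it. Of 6 epithelial markers, 6 lay above the array median on all 12 arrays, among them EPCAM and CDH1. Of 11 leukocyte, endothelial and fibroblast markers, VWF and COL3A1 did so, while PTPRC, CD3E, CDH5 and PDGFRB were below it on every array.

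H/ACA rows were more often above the array median than box C/D rows. On single arrays, 56 to 66 of the 102 SNORA rows lay above the median of the same array, against 61 to 69 of the 174 SNORD rows. These counts are 54.9% to 64.7% and 35.1% to 39.7% of the classes, and the 2 ranges did not overlap. Over all 12 arrays, 47 SNORA rows (46.1%) and 48 SNORD rows (27.6%) were above the median every time, as were 38.4% of all rows of the table. At the other end, 21 SNORA rows and 78 SNORD rows were above it on no array. The median of row means was 6.90 for SNORA and 6.71 for SNORD, against 6.82 for all values of the table.

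**Figure D1:**
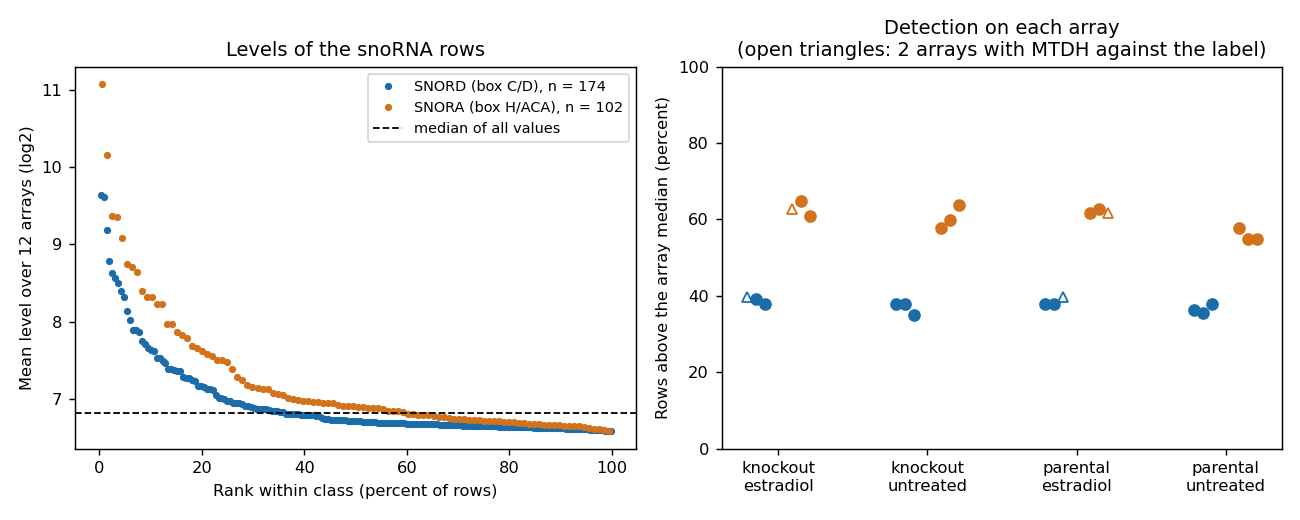
The left panel plots the mean level of each snoRNA row over 12 arrays (log2) against its rank within the class, blue for SNORD (n = 174) and orange for SNORA (n = 102), with the median of all values dashed. The right panel plots the percent of rows above the median of each array by group, with open triangles for the 2 arrays whose MTDH level went against the label. SNORA stays between 54.9% and 64.7% and SNORD between 35.1% and 39.7%.

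A part of the undetected box C/D rows came from tandem families. SNORD113 and SNORD114 lie in repeated copies in an imprinted cluster, as do SNORD115 and SNORD116 in another, and their annotated host transcripts are best known from brain and placenta. Of the 30 rows of these families, 0 were above the array median on all 12 arrays and 5 passed the filter for testing, led by SNORD114-2 at a mean of 6.95. Of the 144 other SNORD rows, 48 were above it every time and 73 (50.7%) passed, still a smaller share than the 65.7% of SNORA rows. Copies of one family are closely similar, so signal cannot be assigned to single copies with certainty. That holds for SNORD3A, SNORD3C and SNORD3D, for SNORA73A and SNORA73B, and for SNORA7B and SNORA70 too.

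The rows with the highest mean levels are given as a description, since rows rest on different probes, whose levels do not rank abundance. In the H/ACA class these were SNORA12 (11.08), which lies within CWF19L1, SNORA61 (10.15) of SNHG12, SNORA24 (9.37) of SNHG8, SNORA67 (9.35) of the translation factor gene EIF4A1, SNORA70 (9.09) of RPL10, and SNORA25 (8.75) within TAF1D. In the box C/D class they were SNORD104 (9.64) within SNHG25, the U3 RNA SNORD3A (9.61), SNORD80 (9.18) of GAS5, SNORD36C (8.78) of RPL7A, SNORD65 (8.63) within SNHG29, and SNORD31 (8.56) of SNHG1. These 12 rows were above the median of every array. The host rows GAS5 (mean 6.801) and RPL10 (6.665) lay below the median of all values.

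The widest ranges over the 12 arrays belonged to SNORD3C (1.22), SNORD3A (1.07), SNORA12 (1.04), SNORA67 (1.00) and SNORA70 (0.95), as log2 differences between the highest and the lowest array. The test took in a row when 3 or more arrays read above 6.82, the median over the whole table. That kept 145 snoRNA rows, 67 SNORA and 78 SNORD (52.5%, against 56.9% of all rows), and 21 of the 145 had a mean below the median. Just inside this limit were SNORD108 (third-highest array 6.819) and SNORD59A (6.829), and just outside SNORD18A (6.814) and SNORD58B (6.812).

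The first comparison asked which snoRNAs differed between the lines before estradiol. In untreated knockout cells, 8 snoRNA rows rose and 1 fell against untreated parental cells, the rises led by an H/ACA row and 2 copies of U3. The tests were limma fits over all 19670 features tested, with Benjamini-Hochberg adjusted p under 0.05 called. The rises were 5.52% of the 145 members tested, against 2.31% of all features, and the single fall was 0.690%, against 8.63%. Each of the 9 called rows lay above the array median on all 12 arrays, so none had passed the filter through one group alone. With no filter on low values, 8 of all 276 rows rose and 1 fell, while 1.1% of all features rose and 4.36% fell (5.46% in either direction). The groups did not overlap in 29 of the 145 rows on the higher side (20%, against 12% of all features) and in 4 on the lower side (2.76%, against 22.8%).

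SNORA12 read 11.54, 11.59 and 11.29 (log2) in untreated knockout cells, against 11.01, 10.55 and 10.58 in untreated parental cells. All 3 knockout arrays were above the 3 parental ones, a difference of 0.76 ± 0.13 (SE, limma adjusted p = 0.0060). SNORD3A, a copy of the U3 RNA that acts in cleavage of the ribosomal RNA precursor toward 18S rRNA, read 9.65, 9.95 and 9.99 in knockout cells, against 9.27, 9.05 and 9.004 in parental cells (0.75 ± 0.15, adjusted p = 0.010). Its copy SNORD3C read 8.52, 8.67 and 8.55, against 7.74 to 8.06 (0.72 ± 0.13, adjusted p = 0.0071), so the groups did not overlap for either copy. One more copy in the table, SNORD3D, averaged 7.46 ± 0.03 in knockout and 7.23 ± 0.12 in parental cells (SD, n = 3 each), and was called in the fit without the 2 arrays (0.23, adjusted p = 0.027).

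The other rises were H/ACA rows. SNORA28, within the translation factor gene EIF5, averaged 7.42 ± 0.08 in untreated knockout and 7.01 ± 0.07 in untreated parental cells (SD, n = 3 each), a difference of 0.41 ± 0.07 (SE, adjusted p = 0.0072). SNORA42 rose by 0.35 ± 0.07 (adjusted p = 0.0086) and SNORA6, of the ribosomal protein gene RPSA, by 0.31 ± 0.07 (adjusted p = 0.014). SNORA67 (0.56 ± 0.14, adjusted p = 0.022) and SNORA7B (0.42 ± 0.12, adjusted p = 0.036) were higher too. The fall was in SNORD4A, of the ribosomal protein gene RPL23A, at 7.47, 7.46 and 7.50 in knockout cells against 7.74, 7.74 and 7.67 in parental cells. That difference was −0.24 ± 0.06 (adjusted p = 0.021), and with quantile-normalized arrays it was not called (adjusted p = 0.085). By class, 6 of 67 SNORA rows rose (8.96%) and 0 fell, where 2.31% of all features rose and 8.63% fell. Of 78 SNORD rows, 2 rose, both U3, which is 2.56% and near the share of all features. One SNORD row fell (1.28%). The shares of the 2 classes were not tested against each other.

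Most tested snoRNA rows shifted little. The median difference was 0.051 for SNORA and 0.020 for SNORD (log2), against −0.029 for all features, and 63.4% of snoRNA rows were on the higher side, against 41.0% of all features. After quantile normalization, which gives every array the same distribution, 14 rows rose and 0 fell, 9.66% of the 145, while 4.49% of all features rose and 3.55% fell (8.04% in either direction). Without the 2 arrays, which belong to neither group but enter the pooled spread, 17 rose and 4 fell. The share that rose was then 11.7%, against 5.98% of all features, and the share that fell 2.76%, against 13.6%. The falls were SNORD4A, SNORA76, SNORA24 and SNORD56. Leaving out the array of parental untreated 2 or of knockout untreated 2 left 4 called rows each. Shares of all features are not given for these refits, so a loss particular to snoRNAs cannot be told from a general one.

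**Figure D2:**
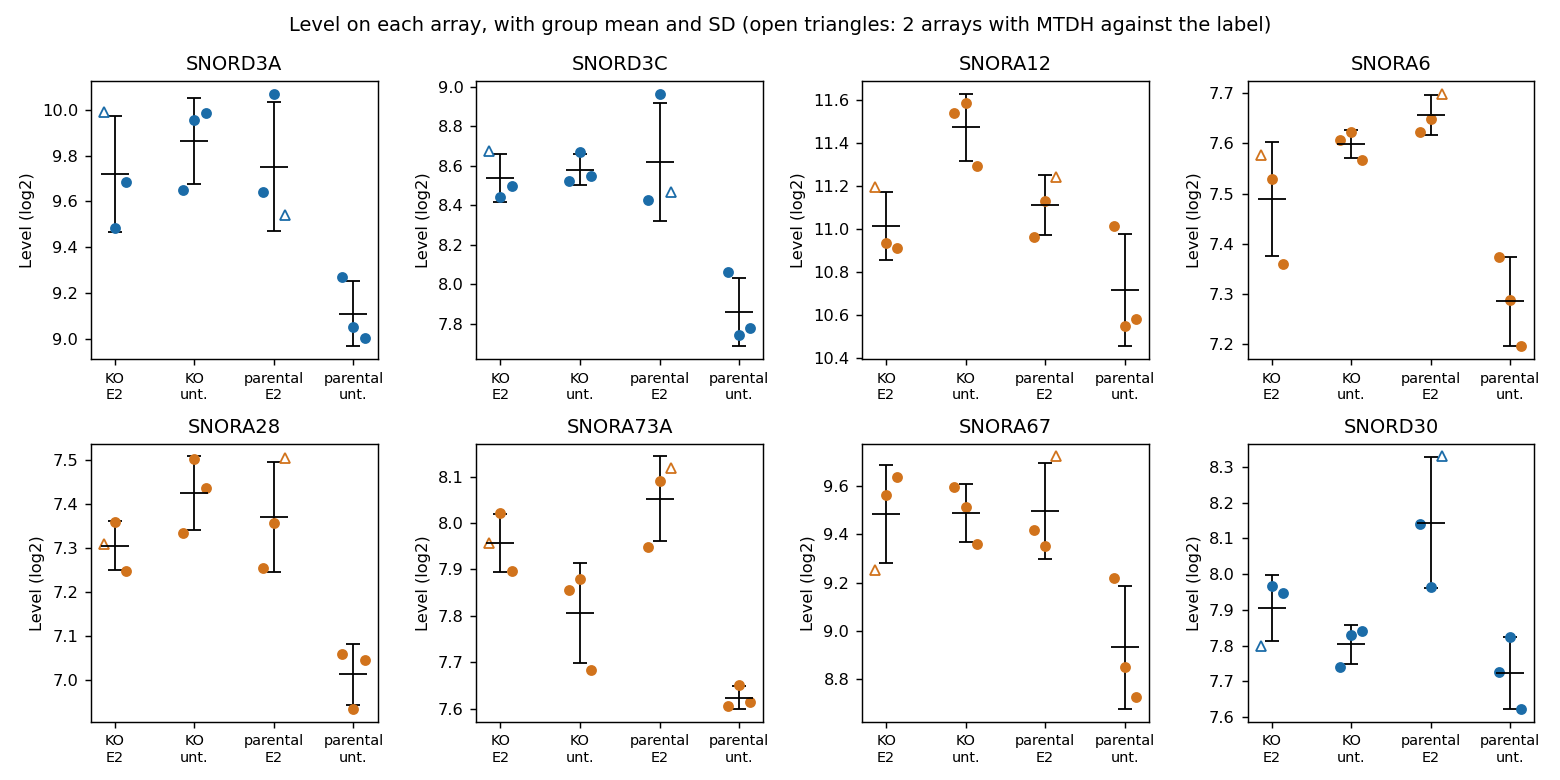
Level on each array (log2) of 8 snoRNA rows in the 4 groups, knockout (KO) and parental, each with estradiol (E2) or untreated, with the group mean and SD (n = 3) in black, blue for SNORD and orange for SNORA, and open triangles for the 2 arrays whose MTDH level went against the label. In SNORD3A, SNORD3C, SNORA28 and SNORA67 the 3 untreated parental arrays are the 3 lowest of the 12.

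The next comparison asked which snoRNAs responded to estradiol in parental cells. In parental cells with estradiol, 15 snoRNA rows rose and 0 fell against untreated parental cells. That is 10.3% of the 145 members tested, while 1.12% of all features rose and 5.87% fell. The 15 were 10 of 67 SNORA rows (14.9%) and 5 of 78 SNORD rows (6.41%), with rises from 0.24 to 0.76 on the log2 scale. All 15 rows lay above the array median on all 12 arrays. Without a filter 14 of all 276 rows rose and 0 fell, while 0.636% of all features rose. The groups did not overlap in 32 of the 145 rows on the higher side (22.1%, against 4.94% of all features) and in 2 on the lower side (1.38%, against 20.3%).

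SNORD3C read 8.42, 8.97 and 8.47 (log2) with estradiol, against 8.06, 7.74 and 7.78 untreated, a rise of 0.76 ± 0.13 (SE, limma adjusted p = 0.0034). SNORD3A read 9.64, 10.07 and 9.54 with estradiol, against 9.27, 9.05 and 9.004 untreated (0.64 ± 0.15, adjusted p = 0.021). For both U3 copies the array of parental estradiol 2 was the highest, and the groups did not overlap. SNORA73A, a copy of the U17 RNA, which acts in processing of the ribosomal RNA precursor rather than as a modification guide, read 7.95, 8.09 and 8.12, against 7.60, 7.65 and 7.61 (0.43 ± 0.07, adjusted p = 0.0026). The second U17 copy, SNORA73B, chosen after its values were seen, rose by 0.35 ± 0.09 (adjusted p = 0.029). In the 10-array fit the rises were 0.84 for SNORD3C, 0.74 for SNORD3A, 0.40 for SNORA73A and 0.31 for SNORA73B, with adjusted p of 0.00030, 0.00089, 0.0040 and 0.040 in that order.

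Among the guide RNAs, SNORA6 averaged 7.66 ± 0.04 with estradiol and 7.29 ± 0.09 untreated (SD, n = 3 each; 0.37 ± 0.07 SE, adjusted p = 0.0060). SNORA57 rose by 0.43 ± 0.08 (adjusted p = 0.0069), SNORA33, of the ribosomal protein gene RPS12, by 0.46 ± 0.09 (adjusted p = 0.0091) and SNORA28 by 0.36 ± 0.07 (adjusted p = 0.011). SNORA67 rose by 0.57 ± 0.14 (adjusted p = 0.024). In the box C/D class SNORD30 read 8.14, 7.96 and 8.33 with estradiol, against 7.73, 7.82 and 7.62 untreated (0.42 ± 0.09, adjusted p = 0.013), and its highest value came from the array whose MTDH level went against its label. SNORD31, from the same host SNHG1, rose by 0.33 ± 0.09 (adjusted p = 0.041), but was not called without the 2 arrays (0.22, adjusted p = 0.081). With 10 arrays the rises of SNORA6 (0.35), SNORA57 (0.49), SNORA33 (0.38), SNORA28 (0.29), SNORA67 (0.45) and SNORD30 (0.33) had adjusted p from 0.0017 to 0.022. SNORD25, another row of that host, stood at 7.44 ± 0.13 with estradiol and 7.30 ± 0.02 untreated.

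Of the 145 rows, 76.6% were higher with estradiol, against 33.2% of all features, and medians were 0.072 for SNORA and 0.060 for SNORD, against −0.046 for all features. The untreated parental arrays also had upper quartiles up to 7.77, as given above. After quantile normalization the medians were 0.10 in both classes, against 0.00051 for all features, and 22 rows rose and 0 fell, 15.2% of the 145, while 2.11% of all features rose and 2.39% fell (4.5% in either direction). Without the 2 arrays 12 rows rose and 0 fell (8.28%), while 1.61% of all features rose and 9.14% fell. Without parental estradiol 3 alone 8 rows were called, and without parental untreated 2 alone 5. For these fits, too, shares of all features are not given.

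**Figure D3:**
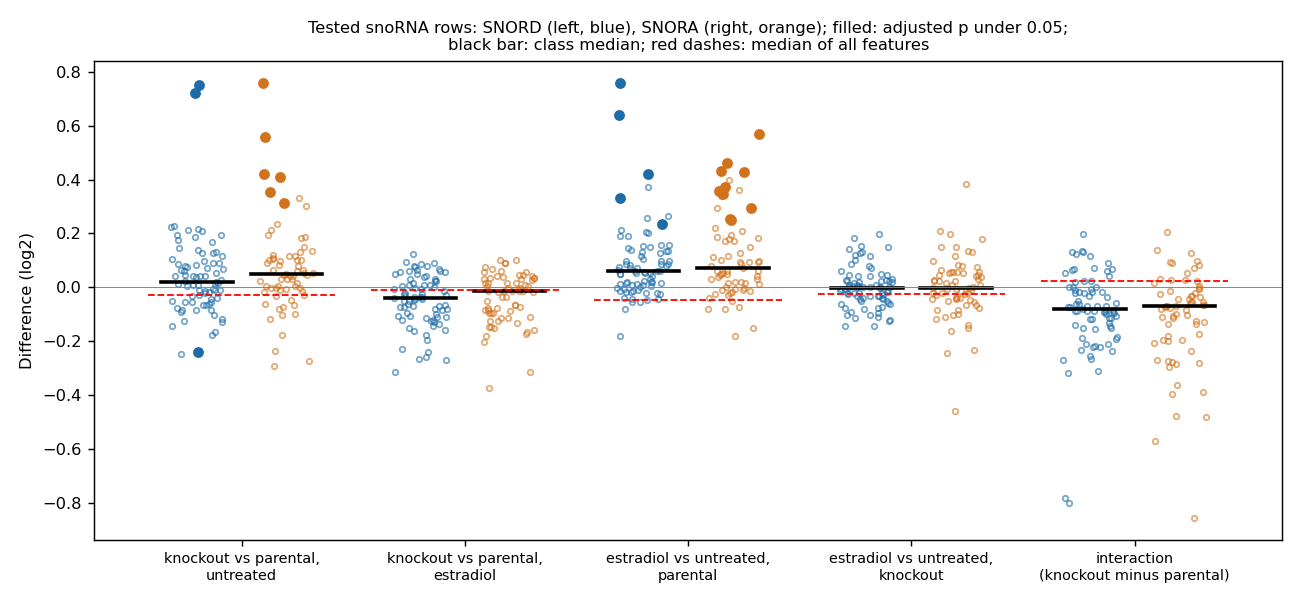
Differences (log2) of the 145 tested snoRNA rows in the 5 comparisons, SNORD left in blue and SNORA right in orange, filled where the adjusted p was under 0.05, with class medians as black bars and the median of all features as red dashes. Called rows appear in the untreated line comparison (9) and for estradiol in parental cells (15), and 1 of these 24 is below 0.

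The 2 comparisons above share the untreated parental arrays, so their agreement is not independent. The rows called higher in both were SNORA28, SNORA42, SNORA6, SNORA67, SNORD3A and SNORD3C. For SNORA42 the estradiol rise was 0.25 ± 0.07 (limma adjusted p = 0.041). That rise was not called after quantile normalization (adjusted p = 0.052) and was lost under 9 of 22 refits. SNORD3C differed by 0.72 in knockout against parental cells and by 0.76 with estradiol, SNORD3A by 0.75 and 0.64, and SNORA6 by 0.31 and 0.37. SNORA12 differed by 0.76 between the lines and by 0.40 ± 0.13 with estradiol, where it was not called (adjusted p = 0.081). Its estradiol value without the 2 arrays was 0.33 (adjusted p = 0.089).

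In knockout cells the same hormone treatment gave no called snoRNA row. Limma called 0 of 145 rows between knockout cells with estradiol and untreated knockout cells, while 1.18% of all features rose and 2.69% fell (3.88% in either direction). An unadjusted p under 0.05 was found for 8 of the 145 rows, against 16.4% of all features. After quantile normalization 2 rows were called, 1 in each direction, where 2.4% of all features rose and 3.05% fell (5.44% together). In the deposited values the groups did not overlap in 11 rows on the higher side (7.59%, against 6.08% of all features) and in 10 on the lower side (6.90%, against 14.8%). Medians were −0.0037 for SNORA and −0.00087 for SNORD (log2), against −0.023 for all features, and 49.7% of the rows were higher. SNORA12 read 11.20, 10.93 and 10.91 with estradiol, against 11.54, 11.59 and 11.29 untreated, and all 3 estradiol arrays were lower (−0.46 ± 0.13, adjusted p = 0.064). SNORA24 read 9.61, 9.33 and 9.37, against 9.01, 9.05 and 9.09 (0.38 ± 0.12, adjusted p = 0.098, and 0.30 with adjusted p = 0.10 without the 2 arrays). In parental cells SNORA24 was higher with estradiol too, by 0.29 ± 0.12 (adjusted p = 0.17). Without the 2 arrays that parental rise was called (0.40 ± 0.10, adjusted p = 0.020). The interaction of SNORA24 was 0.090 with all arrays and −0.099 without the 2, called in neither fit. Without the 2 arrays SNORA12 fell (−0.55 ± 0.12, adjusted p = 0.0094) and no other row was called, where 2.54% of all features rose and 4.26% fell (6.8% in either direction). SNORD3A, 9.72 ± 0.25 with estradiol and 9.86 ± 0.19 untreated, and SNORD3C, 8.54 ± 0.12 and 8.58 ± 0.08 (SD, n = 3 each), overlapped between the groups.

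The interaction, the estradiol response of knockout cells minus that of parental cells, tested that contrast directly. With all arrays limma called 0 of 145 snoRNA rows and 0.00508% of all features. An unadjusted p under 0.05 was found for 21 of the 145 rows, against 10.5% of all features. The lowest p belonged to SNORA6 (−0.48 ± 0.10, adjusted p = 0.10), SNORA12 (−0.86 ± 0.18, adjusted p = 0.12), SNORA28 (−0.48 ± 0.10, adjusted p = 0.14) and SNORD3C (−0.80 ± 0.18, adjusted p = 0.14). Without the 2 arrays 4 rows were called, all negative, which is 2.76% of the 145 against 0.269% of all features called negative and 0.483% called positive. These were SNORD3A (−1.02 ± 0.18, adjusted p = 0.015), SNORD3C (−0.95 ± 0.18, adjusted p = 0.022), SNORA12 (−0.88 ± 0.17, adjusted p = 0.027) and SNORA6 (−0.50 ± 0.11, adjusted p = 0.039). Their parental responses in that fit were 0.74, 0.84, 0.33 and 0.35, in the same order, and SNORD3A stood at −0.28 in knockout cells. That fit had 2 arrays in each estradiol group. The interaction also contains the untreated parental arrays. It is therefore not independent of the untreated line comparison or of the parental estradiol response.

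Between the lines in estradiol, limma called 0 of 145 snoRNA rows with all arrays, and 0 of all features. An unadjusted p under 0.05 was found for 10 of the 145 rows, against 5.41% of all features. SNORA25, within TAF1D, had the lowest p: it read 8.58, 8.37 and 8.52 in knockout cells with estradiol, against 8.96, 8.83 and 8.80 in parental cells with estradiol, with no overlap (−0.38 ± 0.10, adjusted p = 0.90). Without the 2 arrays 1 row rose and 5 fell, 0.690% and 3.45% of the 145, against 4.96% and 4.83% of all features (9.79% in either direction). SNORD56, of NOP56 (−0.44 ± 0.10, adjusted p = 0.0091), SNORA25 (−0.45 ± 0.11, adjusted p = 0.015), SNORA76 (−0.36 ± 0.10, adjusted p = 0.029), SNORA24 (−0.39 ± 0.11, adjusted p = 0.036) and SNORD49A (−0.32 ± 0.09, adjusted p = 0.038) were lower in knockout cells. SNORA7B was higher (0.30 ± 0.09, adjusted p = 0.050). SNORD56, SNORA76, SNORA24 and SNORA7B were also called in the same direction between the untreated lines in the 10-array fit. SNORD3A and SNORD3C were not called here in either fit. Without the 2 arrays they stood at −0.27 (adjusted p = 0.28) and −0.23 (adjusted p = 0.38).

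In the deposited values, host gene rows more often fell on the lower side than the snoRNA rows they hold. For 257 of 276 rows a host could be named, 129 from a list of textbook hosts, each of which RefSeq placed within the host's span, and 128 because the span lay within a single RefSeq gene, with strand not considered. Both partners were tested for 114 snoRNA rows in 72 host genes. Between the untreated lines 69 of the 114 snoRNAs were higher in knockout cells, but 12 of the 72 hosts were, against 41.0% of all features on the higher side. Of the 72 hosts 0 rose and 19 fell, while 8.63% of all features fell. With 10 arrays 25 hosts fell, while 13.6% of all features did. Median differences were 0.030 for the snoRNAs and −0.16 for the hosts. Host differences after quantile normalization are not given here. Over all features, that step took the share that fell from 8.63% to 3.55%. Some named hosts had very high mean levels, with EIF4A1 at percentile 98.8 and RPSA at 99.0 of all rows. Upper quartiles of untreated parental and untreated knockout arrays overlapped, as given above, and whether their differences enter the host counts was not tested. EIF4A1, the host of SNORA67, read 12.11, 11.95 and 12.03 in knockout cells, against 12.41, 12.61 and 12.38 in parental cells, and fell by 0.43 (adjusted p = 0.0071) where SNORA67 rose by 0.56. CWF19L1, the host of SNORA12, stood at −0.070 (adjusted p = 0.45), and RPSA, the host of SNORA6, at −0.38 (adjusted p = 0.050, and 0.020 without the 2 arrays). For SNORD4A the host RPL23A fell as well, by 0.38 (adjusted p = 0.0086).

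With estradiol in parental cells, 85 of the 114 snoRNAs and 17 of the 72 hosts were higher, against 33.2% of all features. Of the hosts 1 rose and 2 fell, while 1.12% of all features rose and 5.87% fell. Leaving out the 2 arrays, 79 of the 114 snoRNAs and 17 hosts were higher, against 26.5% of all features. Of the 72 hosts 1 then rose and 3 fell, while 1.61% of all features rose and 9.14% fell. SNHG1 stood at 0.24 (adjusted p = 0.30), with its called rows SNORD30 and SNORD31 at 0.42 and 0.33. In the 10-array fit SNHG1 stood at 0.072 (adjusted p = 0.64). Across the 114 pairs, which share arrays and often a host, Pearson's r between snoRNA and host differences was −0.044 between the untreated lines and 0.17 for estradiol in parental cells (0.10 without the 2 arrays), given as a description.

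**Figure D4:**
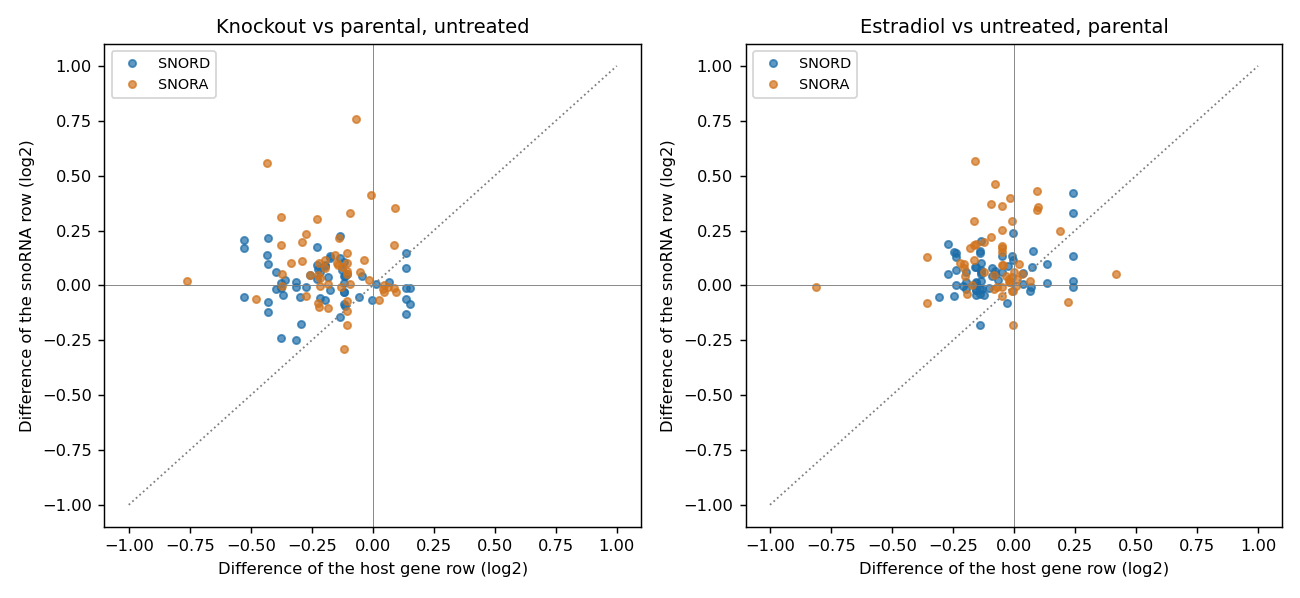
Difference of the snoRNA row (log2, vertical) against that of its host gene row (log2, horizontal) for 114 pairs, in untreated knockout against untreated parental cells (left) and in estradiol against untreated parental cells (right), blue for SNORD and orange for SNORA, with the line of equal change dotted. Most points lie left of 0, with 12 and 17 of the 72 hosts on the higher side.

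Protein partners of the 2 classes were set beside the snoRNAs. The box C/D core consists of FBL, NOP56, NOP58 and SNU13 (NHP2L1 in the table), and NOP56 alone was called with all arrays, between the untreated lines, where 10.9% of all features were called. It read 10.38, 10.31 and 10.37 in untreated knockout cells, against 10.80, 10.68 and 10.51 in untreated parental cells (−0.31 ± 0.07, adjusted p = 0.020). Of the H/ACA core, DKC1, GAR1, NHP2 and NOP10, 0 of 4 were called in any of the 5 comparisons with all arrays. GAR1 also has a row under its older symbol NOLA1, whose tests are not given here. In untreated knockout cells, parental cells with estradiol and untreated parental cells NOLA1 averaged 8.67, 8.76 and 8.90. The GAR1 row averaged 10.55, 10.65 and 10.43, so the 2 rows differed in direction. In knockout cells with estradiol both were higher than untreated (8.86 and 10.72). Without the 2 arrays, FBL (0.39, adjusted p = 0.0091) and GAR1 (0.30, adjusted p = 0.031) rose with estradiol in knockout cells, where 2.54% of all features rose. In that fit FBL (0.34, adjusted p = 0.024) and GAR1 (0.30, adjusted p = 0.038) were also higher in knockout than in parental cells with estradiol, where 4.96% of all features rose, and the interaction of FBL was called (0.56, adjusted p = 0.039). Of 13 assembly and transport factors, PIH1D1, of the assembly chaperone complex, fell between the untreated lines (−0.30, adjusted p = 0.028), where 8.63% of all features fell. With all arrays no other factor was called in any comparison. Leaving out the 2 arrays, NOLC1 (0.49, adjusted p = 0.0032) and RPAP3 (0.26, adjusted p = 0.044) were higher in knockout than in parental cells with estradiol, against 4.96% of all features. RUVBL2 was then lower in untreated knockout than in untreated parental cells (−0.42, adjusted p = 0.017), where 13.6% of all features were lower. RUVBL2 also fell with estradiol in parental cells (−0.43, adjusted p = 0.044), where 9.14% of all features fell.

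Other small non-coding RNA rows, outside the SNORD and SNORA names, were looked at beside the snoRNAs. They were 54 rows picked by identifier, of which 43 were tested, a list chosen after the data were examined. It took in small Cajal body and Y RNAs, 7SK, 7SL, vault RNAs, RMRP, RPPH1 and every row starting with RNU and a digit. The RNU rows include spliceosomal RNAs, but whether some, such as RNU105A, are snoRNAs was not checked. In untreated knockout against untreated parental cells 11 of the 43 rose and 0 fell (25.6%), while 2.31% of all features rose and 8.63% fell. The 10-array fit called 13 higher (30.2%) and 0 lower, where 5.98% of all features were higher and 13.6% lower. With estradiol in parental cells 7 rose and 0 fell (16.3%, against 1.12% of all features that rose). Among the 7 were the U4 rows RNU4-1 (0.64, adjusted p = 0.0023) and RNU4-2 (0.49, adjusted p = 0.016). The Y RNA row RNY4 (0.65, adjusted p = 0.012) and RNU105A (0.44, adjusted p = 0.0049) were among them too. The same comparison with 10 arrays had 14 that rose and 0 that fell (32.6%, against 1.61%). In knockout cells limma called 0 of 43 with estradiol in either fit, against 3.88% of all features with 12 arrays and 6.8% with 10. Between the lines in estradiol 0 were called with all arrays, as were 0 of all features. Without the 2 arrays 2 of the 43 were higher and 8 lower in knockout cells, against 4.96% and 4.83% of all features. The median interaction was −0.20 with 0 called, against 0.00508% of all features. Without the 2 arrays it was −0.22, and 4 were called lower and 0 higher, against 0.269% and 0.483% of all features. Their part in the snoRNA result was not tested.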

How the data were processed

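The authors deposited log2 values, 1 per identifier and array, from Illumina direct hybridization of biotin-labelled total RNA per the labels' protocols. Background correction, normalization and the combination of probes are not given in the sources used here. No further normalization was applied. limma version 3.58.1 in R version 4.3.3 fitted 1 mean per group to 12 arrays, leaving 8 residual degrees of freedom, over rows that 3 or more arrays placed above the table's median. P-values were two-sided and Benjamini-Hochberg adjusted over all 19670 rows tested, separately for each of the 5 comparisons. The fit was tested on simulated data. Arrays were grouped by title. The members, lists, alternatives and naming rule were chosen with earlier results of these data known. Named members were the 6 highest rows of each class, called rows (up to 6 per direction, or the smallest p where none was called), the 5 widest ranges and rows nearest the filter. All 276 identifiers matched RefSeq (GRCh38.p14), 11 as older symbols. Alternatives were other filters, quantile or median scaling, another prior, 6-array fits, a replicate block, a stricter threshold and left-out arrays. The number of arrays limits precision.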

Additional observations from a re-analysis of the deposited data

Results flagged for a closer look

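For 4 snoRNA rows the estradiol response differed between the lines by the interaction test without the 2 arrays with MTDH at the level of the other line (limma adjusted p under 0.05), while 0 were called with all 12 arrays. Of all features 0.752% were called without the 2 arrays and 0.00508% with all 12. The interaction contains the untreated parental arrays, so it is not independent of the other comparisons that use them. The difference, knockout response minus parental response, was −1.02 (log2) for SNORD3A, −0.95 for SNORD3C, −0.88 for SNORA12 and −0.50 for SNORA6. With all 12 arrays the values were −0.78, −0.80, −0.86 and −0.48 in the same order, with adjusted p from 0.10 to 0.20.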

How the results depend on the processing

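Called snoRNA rows in untreated knockout against untreated parental cells were 9 in the reported fit, 14 after quantile normalization, 21 without the 2 arrays with MTDH at the level of the other line, 22 when those 10 arrays were quantile normalized, 17 in a fit of the 6 arrays alone and 4 at an adjusted p under 0.01. Of all features 10.9% were called in the reported fit and 8.04% after quantile normalization. Without the 2 arrays 19.5% were, and 18.7% with quantile normalization as well. For estradiol in parental cells the called snoRNA rows were 15, and 30 without the 2 arrays after quantile normalization, 9 in the fit of 6 arrays and 5 at 0.01. The first 2 of these fits called 7% and 7.17% of all features. For estradiol in knockout cells the reported count of 0 became 2 after quantile normalization, 1 with a trended and robust prior, 1 with the replicate block, 1 without the 2 arrays, 3 without them after quantile normalization and 2 in the fit of 6 arrays. Of all features 3.88% were called in the reported fit and 5.44% after quantile normalization. Without the 2 arrays 6.8% were, and 9.71% with quantile normalization as well. Between the lines in estradiol, 0 became 6 without the 2 arrays and 11 with quantile normalization as well, and for the interaction 0 became 4 in both. The shares of all features called in these fits were 0%, 9.79% and 14.6% between the lines in estradiol. For the interaction they were 0.00508%, 0.752% and 1.2%. Shares of all features are not given for the other refits. Leaving out 1 array at a time gave 4 to 12, 5 to 17, 0 to 1, 0 to 0 and 0 to 0 called rows, for the untreated lines, estradiol in parental cells, estradiol in knockout cells, the lines in estradiol and the interaction. The reported fit used no pairing by replicate number, and 6 of 18 same-numbered pairs had residual correlations over 0.1. The largest were between the estradiol arrays of the 2 lines, at 0.62 for replicate 1, −0.50 for replicate 2 and 0.65 for replicate 3. Replicates 1 and 3 hold the 2 arrays with MTDH at the level of the other line. The replicate block gave 10 and 12 called rows in the first 2 comparisons. Of 24 called row and comparison pairs, 9 stayed called at an adjusted p under 0.05 under all 22 refits, and 0 changed sign. The threshold of 0.01 is not among the 22. SNORA16A and SNORD31, for estradiol in parental cells, were each lost under 12 of them. With a cut at the 67th percentile of each array, 32 SNORA and 34 SNORD rows (medians over arrays) were detected, and at the 75th 19.5 and 16, against 62.5 and 66 at the median. Leaving out 1 array gave 62 to 63 and 66 to 66.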
